A study of Mus musculus with 6 samples.

Results

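The ARF small GTPases are encoded in the mouse by Arf1, Arf2, Arf3, Arf4, Arf5 and Arf6, and all 6 genes were found by name in the deposited table, with 19 of its 115220 transcripts and as 6 of its 47729 genes. The family was chosen by a measured value: the FPKM of Arf1 transcript ENSMUST00000163300, which was already known to differ widely between the groups of these libraries. The differences between groups in the members are therefore given as descriptions with no p-value, and counts of members under a threshold are printed only beside the share of all features and support nothing. FPKM is the number of sequenced fragments of a transcript, scaled to its length and to the fragments of the library, so levels of different genes can be set side by side. For each gene, the FPKM of its transcripts were added to give a gene total. Of the 19 transcripts, 11 had a mean of at least 1 FPKM over all libraries, 5 were above 0 but under that mean, and 3 transcripts of Arf4 were listed at 0 in every library.

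Ribosome-associated RNA was isolated by RiboTag immunoprecipitation from the medial prefrontal cortex (mPFC) of adult male C57BL/6 mice, 3 weeks after virus injection, and sequenced in 3 Ctrl and 3 Gsk3sKO libraries. All mice carried D2Cre, a bacterial artificial chromosome transgene that drives Cre from the dopamine D2 receptor gene, together with Cre-dependent Flag-Cas9 and Cre-dependent hemagglutinin-tagged Rpl22 (RiboTag). Ctrl mice received AAV GFP, which has no guide RNA, and Gsk3sKO mice received AAV Gsk3 sgRNA/GFP, whose guide directs Cas9 to Gsk3b. The labels do not say whether a library stands for 1 mouse or a pool, so errors describe the spread between libraries.

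ARF proteins are switches that insert into membranes when they bind GTP. Guanine nucleotide exchange factors load them with GTP, GTPase-activating proteins end the signal, and GTP-bound ARFs recruit vesicle coats and lipid enzymes. Arf1, Arf2 and Arf3 form class I and Arf4 and Arf5 form class II, which act mainly at the Golgi apparatus and early secretory pathway. Arf6 is the only class III member and acts at the plasma membrane and on endosomes, where it takes part in membrane recycling and actin remodelling. In neurons ARFs are known for roles in receptor trafficking and in dendritic spines.

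The start of the coding sequence shows how alike the members are and where they part. The first 96 coding bases of the most abundant transcript of each gene are given 5′ to 3′, from the GENCODE M21 transcripts of GRCm38, and the capitals mark the codons of the GTP-binding P-loop, which had the same 8 residues in all 6 members.
Arf1: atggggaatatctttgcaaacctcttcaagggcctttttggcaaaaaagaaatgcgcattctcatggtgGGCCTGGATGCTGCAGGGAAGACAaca
Arf2: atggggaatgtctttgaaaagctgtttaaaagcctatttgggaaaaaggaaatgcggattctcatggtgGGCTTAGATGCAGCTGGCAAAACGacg
Arf3: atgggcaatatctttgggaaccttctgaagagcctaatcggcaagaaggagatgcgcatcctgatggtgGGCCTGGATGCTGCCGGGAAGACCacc
Arf4: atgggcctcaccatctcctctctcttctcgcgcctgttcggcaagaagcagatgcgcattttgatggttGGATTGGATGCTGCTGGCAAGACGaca
Arf5: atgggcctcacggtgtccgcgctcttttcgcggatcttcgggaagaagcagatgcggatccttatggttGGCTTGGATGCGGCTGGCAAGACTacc
Arf6: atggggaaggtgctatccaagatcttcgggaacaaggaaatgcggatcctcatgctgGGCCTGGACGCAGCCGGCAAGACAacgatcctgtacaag

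The P-loop began at residue 24 in Arf1 to Arf5 and at residue 20 in Arf6, whose amino terminus is shorter. The coding sequence was 543 bases for each class I gene, 540 for each class II gene and 525 for Arf6. The gene structure followed the same classes. Class I genes had 4 coding exons of 148, 111, 125 and 159 bases, class II genes had 6 of 67, 81, 110, 72, 126 and 84 bases, and the coding sequence of Arf6 lay in 1 exon. Translated proteins were identical at 94.5% to 96.1% of aligned positions within class I, at 90.0% between Arf4 and Arf5, and at 63.3% to 68.0% between Arf6 and the others. The coding bases were less alike, with 83.6% identity for Arf1 and Arf3, the closest pair. The longest run of bases shared by the most abundant transcripts of any pair was 39, between Arf1 and Arf6, and it was 29 between Arf1 and Arf3. How reads that fit more than 1 gene were counted is not given in the sources used here.

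On GRCm38, Arf1 lies on chromosome 11 from 59211412 to 59228270 on the minus strand, Arf2 on chromosome 11 from 103966739 to 103985337 on the plus strand, and Arf3 on chromosome 15 from 98736634 to 98763214 on the minus strand. Arf4 lies on chromosome 14 from 26638074 to 26665084, Arf5 on chromosome 6 from 28423560 to 28426602, and Arf6 on chromosome 12 from 69372150 to 69373783, all on the plus strand. In the GENCODE M21 annotation, Arf4 overlaps Pde12 and Arf4os, Arf5 overlaps Gcc1, and Arf6 overlaps Gm9887, all on the opposite strand. The gene totals of these overlapping genes reached at most 8.27 FPKM in any library. The library kit marks strand, and the strand setting of the counting is not given in the sources used here.

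Across the libraries the gene totals of the 6 ARF genes added up to between 411 and 516 FPKM. Class I made up 80.9% to 86.1% of this sum, class II 11.5% to 16.5% and class III 1.55% to 2.67%. Arf3 and Arf1 were among the most abundant RNAs in the immunoprecipitates, at rank 175 and rank 281 of the 12874 gene totals with a mean of at least 1 FPKM. Arf6 ranked 5679.

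**Figure D1:**
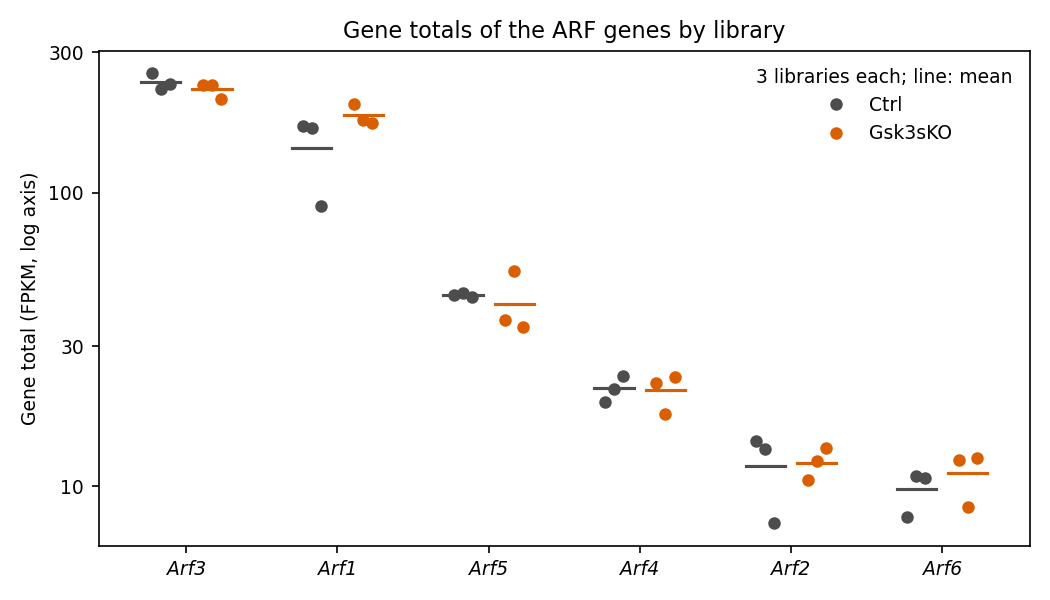
Gene totals in FPKM on a log axis for the 6 ARF genes, with 1 point per library, 3 Ctrl and 3 Gsk3sKO libraries, and a line at each group mean. The order from Arf3 to Arf4 has no overlap between neighbours, Arf2 and Arf6 overlap, and the Arf1 value of Ctrl replicate 3, 90.2 FPKM, lies below the other 5.

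Arf3, a Golgi ARF abundant in brain, had the highest gene total in every library, at 255, 225 and 235 FPKM in Ctrl and 233, 232 and 208 FPKM in Gsk3sKO. Arf1, which recruits the COPI coat and clathrin adaptors to Golgi membranes, followed with 169, 166 and 90.2 FPKM in Ctrl and 201, 177 and 173 FPKM in Gsk3sKO. The ratio of Arf3 to Arf1 was 1.51, 1.36 and 2.60 in Ctrl and 1.16, 1.31 and 1.20 in Gsk3sKO, so that it was above 1 in all 6 libraries and highest in Ctrl replicate 3. Arf5 was at 44.7, 45.4 and 44.1 FPKM in Ctrl and 37.0, 53.9 and 34.8 FPKM in Gsk3sKO. Its Ctrl values lay close together, while the Gsk3sKO values lay on both sides of them. The highest, 53.9 FPKM in Gsk3sKO replicate 2, is a sum that includes a shorter transcript, described below. Arf4, the other class II gene, was at 19.4, 21.5 and 23.8 FPKM in Ctrl and 22.5, 17.6 and 23.7 FPKM in Gsk3sKO. Arf2 was at 14.2, 13.4 and 7.497 FPKM in Ctrl and 10.5, 12.2 and 13.5 FPKM in Gsk3sKO. Its lowest value, like that of Arf1, was in Ctrl replicate 3. Arf6 was at 7.89, 10.9 and 10.7 FPKM in Ctrl and 12.3, 8.51 and 12.5 FPKM in Gsk3sKO. The groups overlapped for each of these genes but Arf1.

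The order of the levels was not used to choose the family, but the Arf1 gene total includes ENSMUST00000163300, whose value was. Neighbouring pairs were formed from the means of the same 6 libraries and then tested. Over the 6 libraries, Arf3 exceeded Arf1 by 0.54 ± 0.43 (SD, n = 6) on the log2(FPKM + 1) scale, Arf1 exceeded Arf5 by 1.86 ± 0.49, Arf5 exceeded Arf4 by 0.98 ± 0.36 and Arf4 exceeded Arf2 by 0.82 ± 0.42. Each of these differences had the same sign in 6 of 6 libraries (2-sided exact paired permutation test, p = 0.0312, the smallest that 6 libraries allow, and p = 0.0391 after Benjamini-Hochberg adjustment over the 5 neighbouring pairs). Arf2 exceeded Arf6 in 4 of 6 libraries, by 0.16 ± 0.45 (2-sided exact paired permutation test, p = 0.406, adjusted p = 0.406), and these genes could not be ranked. When only the most abundant transcript of each gene was used, the order of the means was the same, and 3 of the 5 neighbouring pairs kept 1 sign in all libraries in place of 4.

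Gene totals differed between groups by less than the spread between libraries for most members. Arf1 averaged 142 ± 44.5 FPKM (SD, n = 3) among Ctrl libraries against 184 ± 14.8 FPKM (SD, n = 3) among Gsk3sKO libraries, and its log2 fold change was 0.43 with a standard error of 0.24. Every Gsk3sKO library lay above every Ctrl library, the nearest being 173 and 169 FPKM, and the log2 fold change was 0.13 once Ctrl replicate 3 was left out. The other 5 gene totals had log2 fold changes between -0.12 for Arf5 and 0.16 for Arf6, with standard errors between 0.13 and 0.25. For Arf2 the log2 fold change was 0.08 and turned to -0.19 once Ctrl replicate 3 was left out. Of the 6 members, 0 gene totals had an unadjusted limma p under 0.05, where 6.56% of all 12874 gene totals did, and 1 member had groups that did not overlap, where 12% of all did. The median log2 fold change was 0.03 over the 6 members and -0.06 over all gene totals.

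The Arf1 gene total hides a difference in the makeup of its transcripts. Both listed Arf1 transcripts have 5 exons and the same 543 coding bases, so they encode the same protein. They share 1702 bases and differ in the noncoding first exon. In ENSMUST00000061242 this exon has 98 bases, from 59228173 to 59228270, and in ENSMUST00000163300 it has 287 bases, from 59227876 to 59228162 on chromosome 11, with 10 bases between them. ENSMUST00000163300 also ends 2 bases further downstream. The split of reads between the transcripts therefore rests on 289 bases of one and 98 of the other and on their splice junctions.

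**Figure D2:**
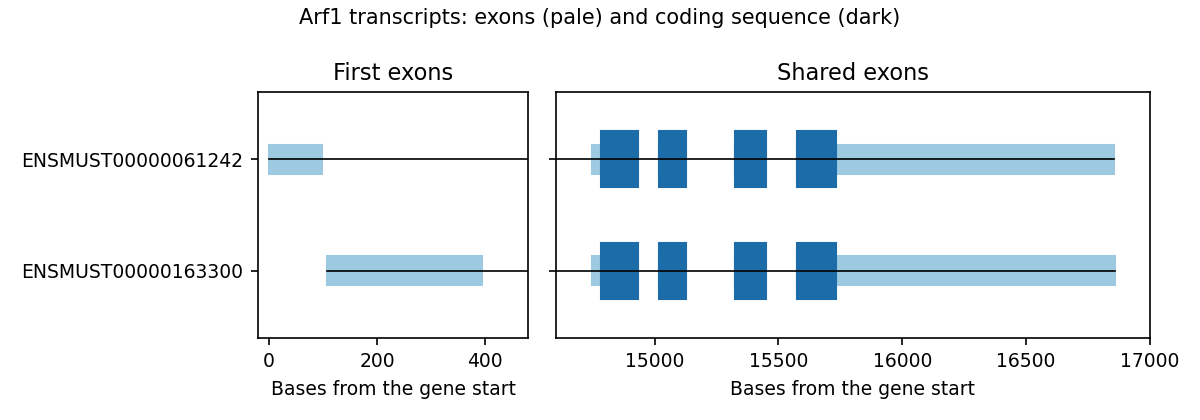
Exons of the 2 Arf1 transcripts by distance in bases from the most upstream annotated start, in the direction of transcription, with noncoding parts pale and coding sequence dark. The first exons are separate, of 98 and 287 bases, and the coding parts of the 4 later exons are the same.

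ENSMUST00000163300 had 2.30, 5.57 and 2.52 FPKM in the Ctrl libraries and 70.8, 25.1 and 59.3 FPKM in Gsk3sKO. It was higher in each Gsk3sKO library than in any Ctrl library, and Gsk3sKO replicate 2 lay well below the other two of its group. As a share of the Arf1 gene total it was 1.36%, 3.36% and 2.79% in Ctrl and 35.3%, 14.1% and 34.3% in Gsk3sKO. ENSMUST00000061242, the major transcript, had 167, 160 and 87.7 FPKM in the Ctrl libraries and 130, 152 and 114 FPKM in Gsk3sKO, and the groups overlapped. On the log2(FPKM + 1) scale the difference was 3.51 (standard error 0.47) for ENSMUST00000163300, an 11.4-fold ratio of FPKM + 1, and -0.02 (standard error 0.27) for ENSMUST00000061242. The first of these lay between 3.23 and 3.96 when any 1 library was left out. The second went to -0.32 when Ctrl replicate 3 was left out and to 0.14 when Ctrl replicate 1 was.

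Arf3 and Arf5 also had transcripts whose values did not overlap between groups. Arf3 transcript ENSMUST00000156572, a short form of 505 bases with 148 annotated coding bases and 255 bases that no other Arf3 transcript has, was at 21.02, 11.2 and 7.27 FPKM in Ctrl and 2.61, 2.62 and 5.84 FPKM in Gsk3sKO. It was lower in each Gsk3sKO library, with a log2 fold change of -1.55 and a standard error of 0.46. It made up 1.12% to 8.25% of the Arf3 gene total, and the full-length transcript ENSMUST00000053183 made up at least 90.3% of it in every library. ENSMUST00000053183 was at 230, 211 and 225 FPKM in Ctrl and 227, 220 and 199 FPKM in Gsk3sKO, and the groups overlapped. The third Arf3 transcript, ENSMUST00000129354, which has no annotated coding sequence, was between 2.72 and 9.84 FPKM.

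Arf5 transcript ENSMUST00000020717 was at 44.4, 45.3 and 44.0 FPKM in Ctrl and 36.9, 16.9 and 34.8 FPKM in Gsk3sKO. The log2 fold change, -0.65 with a standard error of 0.30, came to -0.31 when Gsk3sKO replicate 2 was left out. In that library another transcript with the same coding sequence, ENSMUST00000169841, was listed at 37.0 FPKM, while it was listed at 0 in the other 5 libraries. ENSMUST00000169841 has 0 exonic bases of its own, and differs from ENSMUST00000020717 by a spliced intron before the start codon and by its ends. In Gsk3sKO replicate 2 the summed FPKM of both transcripts was the highest Arf5 value of the 6 libraries. The low value of ENSMUST00000020717 there came with a value for the second transcript. ENSMUST00000169841 has 768 bases against 1116 for ENSMUST00000020717, and FPKM is scaled to length, so a fragment counted for it adds more FPKM. The sum is therefore not like those of the other libraries, and whether Arf5 RNA was higher there cannot be told from it.

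**Figure D3:**
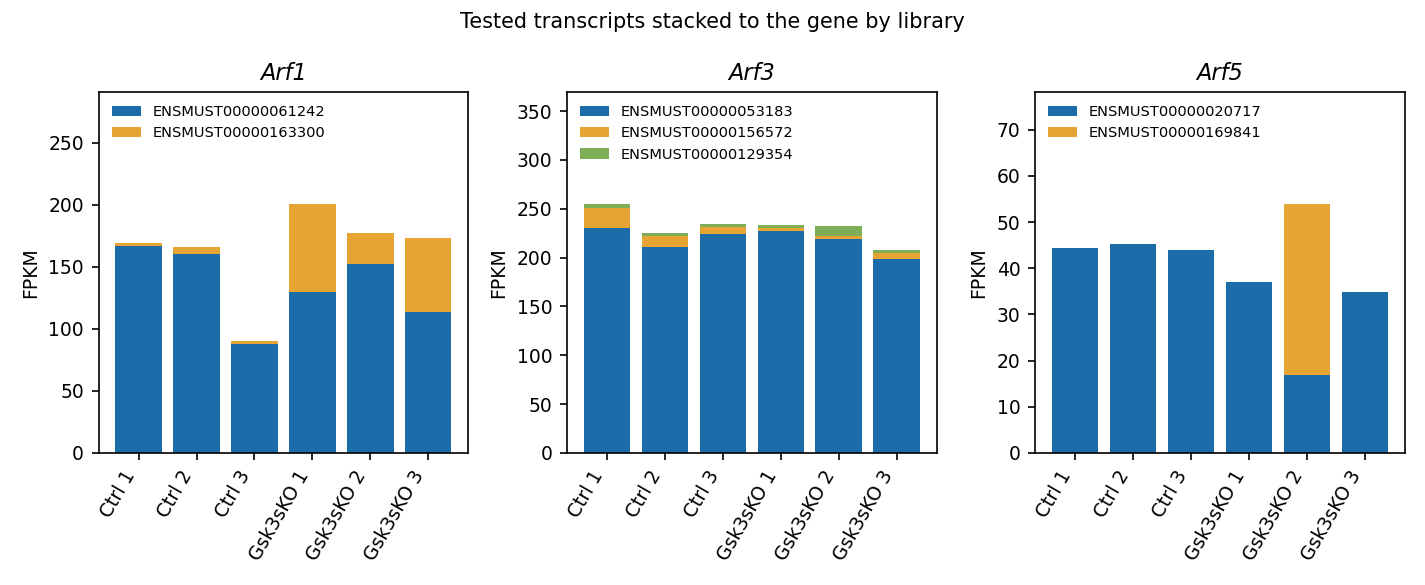
FPKM of the tested transcripts of Arf1, Arf3 and Arf5 stacked from 0 in each of the 6 libraries. ENSMUST00000163300 takes 14.1% to 35.3% of Arf1 in the Gsk3sKO libraries and at most 3.36% in Ctrl, and ENSMUST00000169841 of Arf5 appears in Gsk3sKO replicate 2.

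The remaining members were carried by 1 main transcript each. Arf2 transcript ENSMUST00000057921 made up at least 76.1% of the gene total, with the lowest share in Gsk3sKO replicate 3, where ENSMUST00000063347, which has another noncoding first exon and the same coding sequence, was at 3.24 FPKM. Arf4 transcript ENSMUST00000022429 was at 16.5, 15.3 and 22.5 FPKM in Ctrl and 18.3, 17.3 and 23.7 FPKM in Gsk3sKO. The other tested Arf4 transcript, ENSMUST00000171282, has no annotated coding sequence and was at 2.29, 5.92 and 1.302 FPKM in Ctrl and 3.63, 0.361 and 0 FPKM in Gsk3sKO. Arf6 has 1 listed transcript, ENSMUST00000050063, which is its gene total.

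The value of ENSMUST00000163300 chose the family, so it is left out of the count of calls. Of the other 10 tested transcripts of the members, ENSMUST00000156572 was under an unadjusted limma p of 0.05 and was lower in Gsk3sKO. Among all 21584 tested transcripts 5.56% were under it, 1.81% higher and 3.75% lower. After Benjamini-Hochberg adjustment limma called 0 of all 21584. Values did not overlap between groups for 3 of the 11 tested transcripts, ENSMUST00000163300 included, where this was so for 11.2% of all. Nothing is read from these counts, since the same contrast chose the family.

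**Figure D4:**
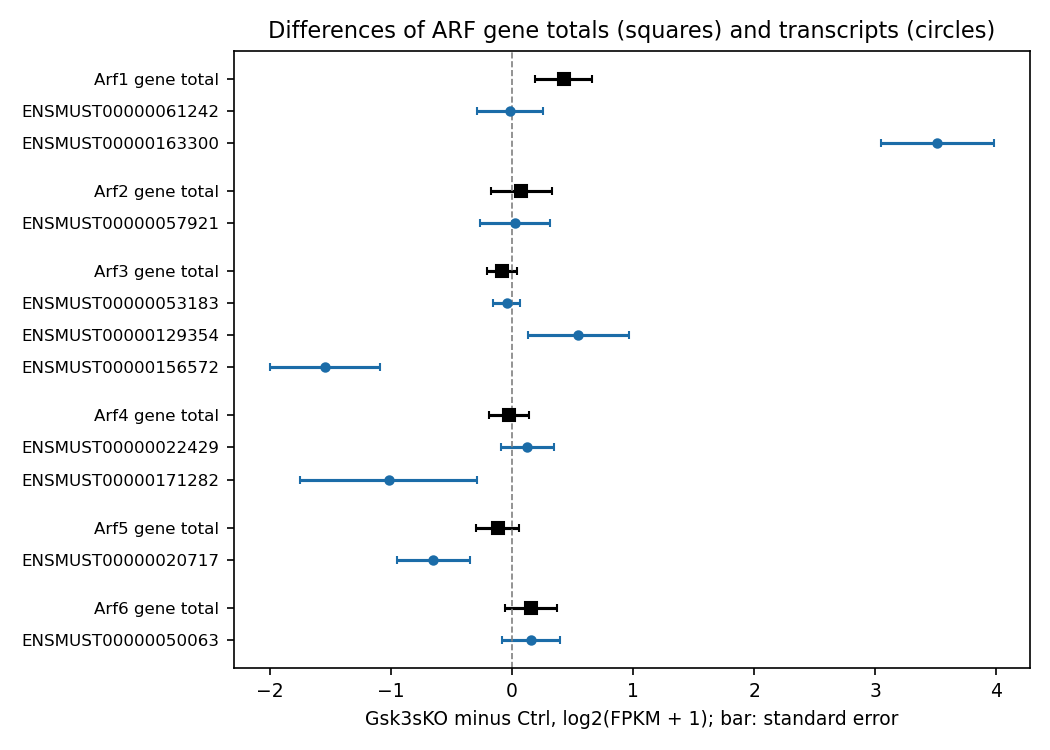
Difference between Gsk3sKO and Ctrl on the log2(FPKM + 1) scale, with its standard error, for the 6 gene totals (squares) and the tested transcripts (circles) without ENSMUST00000169841. The gene totals lie between -0.12 and 0.43, while ENSMUST00000163300 of Arf1 is at 3.51 and ENSMUST00000156572 of Arf3 at -1.55.

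The targeted gene and the cell type markers give the setting of these values. The main Gsk3b transcript, ENSMUST00000023507, was at 33.5 to 36.2 FPKM in Ctrl and 21.2 to 24.8 FPKM in Gsk3sKO, and the Gsk3b gene totals overlapped. Drd2, the gene of the D2 receptor, was between 1.58 and 14.1 FPKM, with its lowest and highest values both in Ctrl. The excitatory marker Slc17a7 was at 262, 273 and 264 FPKM in Ctrl and, without overlap, at 253, 261 and 192 FPKM in Gsk3sKO. The inhibitory marker Gad1 was between 95.7 and 237 FPKM. The 6 neuronal genes added up to 1562 to 1708 FPKM. Summed markers of other cells were also above 0, at 49.8 to 70.9 FPKM for 5 astrocyte genes, 108 to 169 FPKM for 5 oligodendrocyte genes, 9.89 to 20.2 FPKM for 5 microglia genes and 10.9 to 37.0 FPKM for 5 endothelial genes. Of these markers, Mog was listed at 0 in Gsk3sKO replicates 2 and 3 and the others were above 0 throughout. The groups overlapped in each of these sums, and their part in the ARF values was not tested. In such bulk samples, fewer cells of a type and less RNA per cell cannot be told apart.

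Among the genes whose totals were most like that of Arf1 over the 6 libraries were Dusp6, Dpysl3, Gm15446 and Slc36a4. Their Pearson correlations with Arf1 on the log2(FPKM + 1) scale were between 0.94 and 0.97, and 22 of 12873 gene totals were above 0.9. All 4 had their lowest value in Ctrl replicate 3, as Arf1 did. The points share libraries, and the correlations are descriptions of 6 values.

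The partners of the ARFs were followed as a list of 115 genes chosen by known role, of which 101 gene totals were tested. At an unadjusted limma p under 0.05, 1 gene total was higher and 3 were lower in Gsk3sKO, which is 3.96% of the list against 6.56% of all gene totals, 1.36% higher and 5.2% lower. With each library rescaled to the median ratio, 3 were higher and 1 lower, and these were not all the same genes. Arl2 and Arfip2 kept their calls, and Agap1 and Ap4m1 lost theirs. Arl5a and Arap2, named here after their values were seen, were not called in the main fit and were called as higher after rescaling. Arl5a was also called as higher when the replicate number was added to the model. After Benjamini-Hochberg adjustment over all gene totals limma called 0 of the 101, with a smallest adjusted p of 0.741. The median log2 fold change of the list was 0.02. Leaving out Ctrl replicate 2 took the count to 1, leaving out Gsk3sKO replicate 2 took it to 2, and without Gsk3sKO replicate 1 it was 6.

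The 14 tested exchange factors held 0 of these calls. The most abundant were Psd3 and Iqsec1, both of which act on Arf6, at means of 124 and 48.4 FPKM over the 6 libraries. Iqsec1 varied widely, at 25.3, 55.9 and 63.4 FPKM in Ctrl and 59.4, 60.2 and 26.3 FPKM in Gsk3sKO, so that 1 library of each group lay far below the rest. Among 19 GTPase-activating proteins, 1 was lower. Agap1, which also binds the AP-3 adaptor, was at 13.5, 16.1 and 17.1 FPKM in Ctrl and 9.81, 8.32 and 13.5 FPKM in Gsk3sKO (a difference of -0.54 ± 0.21, SE, on the log2 scale, limma adjusted p = 0.741). The most abundant in this role were Agap2 and Smap1, at 119 and 99.2 FPKM, and neither passed the test.

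The COPI coat, which ARFs recruit for transport from the Golgi back to the endoplasmic reticulum, held 0 calls among 13 genes. Its most abundant members were Copg1 and Copb2, at 65.8 and 45.6 FPKM. Of 19 clathrin adaptor genes, Ap4m1, a subunit of the AP-4 complex, was lower, at 4.51, 3.46 and 3.44 FPKM in Ctrl and 3.08, 1.52 and 1.71 FPKM in Gsk3sKO (a difference of -0.66 ± 0.28, SE, on the log2 scale, limma adjusted p = 0.755). The most abundant adaptors were Ap3b2, a neuronal AP-3 subunit, at 72.9 FPKM and Ap3d1 at 68.8 FPKM.

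Among 17 lipid enzymes, lipid carriers and other effectors, Arfip2, which encodes an ARF-binding protein that curves membranes, was higher, at 19.1, 16.7 and 15.1 FPKM in Ctrl and 21.4, 23.4 and 21.8 FPKM in Gsk3sKO (a difference of 0.37 ± 0.15, SE, on the log2 scale, limma adjusted p = 0.75). The most abundant effectors were Pip5k1c, which makes the lipid PIP2 and is stimulated by Arf6, at 102 FPKM, and Rab11fip4 at 94.7 FPKM. Of 19 ARF-like and SAR GTPases, Arl2, which is known for its role in tubulin folding, was lower, at 18.9, 19.8 and 18.5 FPKM in Ctrl and 17.7, 11.7 and 8.89 FPKM in Gsk3sKO (a difference of -0.59 ± 0.24, SE, on the log2 scale, limma adjusted p = 0.745). Arl3 and Arl1 were the most abundant, at 106 and 60.4 FPKM. Each of the 4 called gene totals lost its call when at least 1 library was left out. Agap1 and Ap4m1 also lost it with rescaled libraries. Arfip2 and Ap4m1 also lost it when the replicate number was added to the model, where Arl2 and Agap1 kept it.

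**Figure D5:**
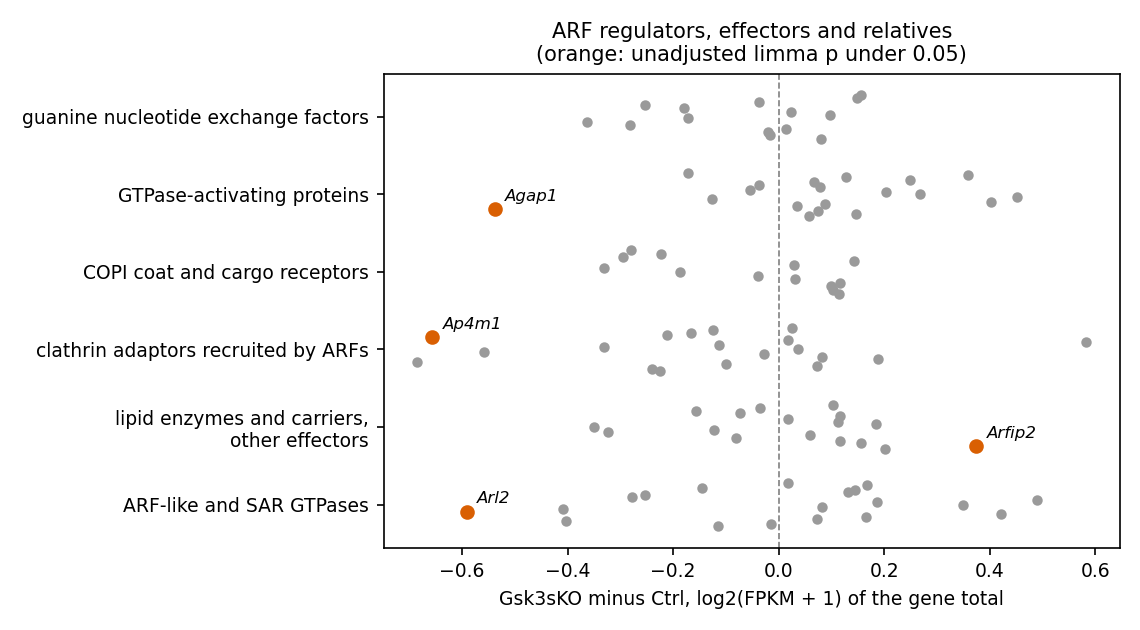
Difference between Gsk3sKO and Ctrl in the gene total, on the log2(FPKM + 1) scale, with 1 point for each of 101 ARF regulators, effectors and relatives by role. The 4 orange points, Agap1, Ap4m1, Arl2 and Arfip2, passed an unadjusted limma p under 0.05, and the median of all points is 0.02.

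At the level of transcripts, 10 of 204 tested transcripts of the list passed, 1 higher and 9 lower in Gsk3sKO, a share of 4.9% against 5.56% of all tested transcripts. With rescaled libraries 4 were higher and 6 lower. The count of 10 went to 4 when Ctrl replicate 2 was left out, to 6 when Gsk3sKO replicate 2 was, and to 16 when Gsk3sKO replicate 1 was. The smallest p was that of Mapk8ip3 transcript ENSMUST00000119115, of a gene for a motor adaptor that binds ARF6, named here after its value was seen. It was at 10.1, 9.12 and 7.26 FPKM in Ctrl and 2.38, 4.28 and 2.93 FPKM in Gsk3sKO (a difference of -1.24 ± 0.28, SE, on the log2 scale, limma adjusted p = 0.61). The Mapk8ip3 gene total did not follow, at 71.5, 78.0 and 77.3 FPKM in Ctrl and 68.2, 79.1 and 67.4 FPKM in Gsk3sKO, a difference of -0.08 ± 0.13 (SE). The differences of the other tested Mapk8ip3 transcripts ranged from -0.81 for ENSMUST00000146923 to 0.96 for ENSMUST00000115229, and they did not pass the test.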

How the data were processed

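The 3 Ctrl and 3 Gsk3sKO libraries were grouped by their titles in the submitters' labels. The authors deposited FPKM values per transcript and library, and the submitters' processing notes list HISAT2 2.1.0, SAMtools 1.9, StringTie 1.3.4d and GRCm38. Their settings were not stated in the sources used here. StringTie divides reads between overlapping transcripts by an estimate, so transcripts of 1 gene can trade FPKM. The table also holds the authors' own folds, p-values and q-values, which were not used.

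The table holds no counts. The spacing of low values gave only a rough relative depth, lowest in Ctrl replicate 3, since just 30.2% to 44.4% of the low values in a library lay within 0.05 of a whole step. Depth is therefore taken as unknown, and no counting interval was made.

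Groups were compared with limma 3.58.1 in R 4.3.3 (lmFit, eBayes with a trend, 2-sided) on log2(FPKM + 1) for all transcripts, and for all gene totals, with a mean of at least 1 FPKM, adjusted by the Benjamini-Hochberg method. The scale understates changes of low values. Annotation was GENCODE M21, in which 114237 transcripts were found. Proteins were aligned with Biopython 1.88 (global, BLOSUM62). Figures used matplotlib 3.10.9.

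The members and lists were chosen with earlier results of these data known. Named were all members with their tested transcripts and, in each role, the 2 most abundant genes and those with an unadjusted p under 0.05, the 5 genes most like Arf1, of which 1 is not reported here, and Gsk3b. Alternatives were another pseudocount, other filters, rescaling, an unmoderated model, a replicate block, coding transcripts only and leaving out each library.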

Additional observations from a re-analysis of the deposited data

How the results depend on the processing

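The differences of the ARF gene totals and transcripts were recomputed under 207 combinations of member and alternative. The filters, the ordinary linear model and the replicate block leave a difference of group means as it is, which fixes 66 of them. In 140 of the other 141 the value moved by less than the spread between libraries, taken as the pooled SD of the groups. The exception was Arf4 ENSMUST00000171282, whose log2 fold change went from -1.02 to -2.29 with a pseudocount of 0.1. Leaving out 1 of 3 libraries cannot move a difference by that much, so those values had to count as unmoved. The count therefore says nothing on how far single libraries matter. The Arf1 gene total, for example, went from 0.43 to 0.13 without Ctrl replicate 3. Without Gsk3sKO replicate 2, ENSMUST00000169841 was at 0 in all remaining libraries and gave no value.

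After Benjamini-Hochberg adjustment limma called 0 of all 21584 tested transcripts and 6 of all 12874 gene totals. The 6 became 0 in the ordinary linear model, with the replicate block, without a filter, with a mean of at least 5 FPKM and with coding transcripts only. With a pseudocount of 0.1 they became 3. Leaving out any of the Gsk3sKO libraries gave 0, and leaving out Ctrl replicate 1, 2 or 3 gave 2, 1 and 21. The count of 1200 transcripts with an unadjusted limma p under 0.05 was 1917 without a filter and 590 with a mean of at least 5 FPKM, which tests fewer transcripts. The 10 called transcripts of the ARF partners were 3 with that filter and 6 in the ordinary linear model, and ranged from 4 to 16 with 1 library left out. The 4 called gene totals of the partners ranged from 1 to 6 with 1 library left out. The cause of the changes other than those of the filter was not tested. Rescaling moved the split of all called gene totals from 669 lower and 175 higher to 502 lower and 307 higher.

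The labels give both groups the same replicate numbers. Deviations of same-numbered libraries from their group means had correlations of -0.0274, -0.0108 and -0.0809, and 0 of the 6 libraries correlated best with its own number, so the numbers were not taken as pairs. With the replicate block 1103 transcripts, 821 gene totals, 14 transcripts of the partners and 3 gene totals of the partners were called.

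With no read counts, the precision of the ARF values rests on the spread between 3 libraries a group.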
